A study of Mus musculus with 4 samples.

Results

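The genes described here are those of serine and D-serine metabolism, 10 of the 27189 gene rows in each RNA-seq table: Phgdh, Psat1, Psph, Srr, Shmt1, Shmt2, Dao, Ddo, Slc1a4 and Slc7a10. Each was taken by its symbol, and no level or difference entered that rule. A symbol with several rows would have been represented by the row with the highest mean, but each of the 10 genes had 1 row. Dao is listed under its older symbol, Dao1.

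The RNA came from cell bodies of large motor neurons cut by laser from the ventral horn of the spinal cord of 3-month-old mice on a C57BL/6J x SJL/J background. The 2 wild-type libraries came from mice transgenic for SOD1 YFP, a human SOD1 genomic fragment joined to yellow fluorescent protein (strain 592), and the 2 G85R libraries from mice carrying the same fusion with the ALS-linked G85R mutation (strain 737). Each library was made from polyA RNA of 3000 to 4000 cell bodies of 1 animal. Every animal therefore carried a human SOD1 fusion, and there was no non-transgenic control. The strains are separate transgenic lines, and the mutant line carries many more transgene copies, so mutation, copy number and line cannot be told apart. At this age nearly all G85R mice are still without symptoms, and the cell bodies with large bright aggregates were left out of the G85R collection. The human transgene itself was not analysed here.

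L-serine is made from the glycolytic intermediate 3-phosphoglycerate by 3 enzymes acting in turn, Phgdh, Psat1 and Psph. Serine racemase (Srr) converts L-serine to D-serine, which with glycine acts as a co-agonist of the NMDA class of glutamate receptors, and D-amino-acid oxidase (Dao) degrades it. In the nervous system serine synthesis is known mainly from astrocytes, which pass L-serine to neurons, and in the spinal cord and brainstem Dao is likewise known from astrocytes. D-serine and Dao have been studied in ALS because excess activation of NMDA receptors harms motor neurons.

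Phgdh, the first enzyme of the pathway, stood apart from the other 9 genes in its sequence. Its processed copies lie at many places in the mouse genome, so a short read from Phgdh mRNA often cannot be given to a single position. The following 30 bases of the coding strand, coding bases 53 to 82 of exon 1, are shown because they compare Phgdh with the 4 copies that matched it in the most windows of read length. Capitals mark bases that differ from Phgdh, and coordinates are those of mm9.
Phgdh, chr3:98143674-98143703, minus strand: gctgccggaagatcctgcaagatggagggc
Copy, chr8:78237012-78237041, minus strand: gctgccggaagatcctgcaagatggagggc
Copy, chr7:144002644-144002673, plus strand: gctgccggaagatcctgcaagatggagggc
Copy, chr8:13747393-13747422, minus strand: ActTccggaagatcctgcaagatggagggc
Copy, chr15:19386026-19386055, minus strand: gctgccggaagatcctgcaagatggagggc
In this stretch 3 of the 4 copies were identical to Phgdh and the other had 2 mismatches. The copy matched by the most windows, at chr8:78235359-78237188, overlapped the gene 1700007B14Rik and the annotated pseudogene Gm7901.

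Of the 1819 windows of 75 bases, the read length, along the Phgdh transcript, 1699 (93.4%) matched another place in the genome with at most 2 mismatches. An identical second match was found for 1049 windows (57.7%). The median window had 6 other matches, and the highest number was 13. The copies numbered 19 when only those matched by at least 50 windows were counted, and they lay on 12 chromosomes. A further 30 bases, coding bases 1398 to 1427 in exon 11, are shown because they lie in one of the few parts of the transcript with windows that had no second match, and capitals again mark differences from Phgdh.
Phgdh, chr3:98118111-98118140, minus strand: cgtattccgggctcagccctccgaccctgg
Copy, chr8:78235667-78235696, minus strand: cAtattccgggctcagccctccAaccctgT
The copy had 3 mismatches here. In all, 120 windows (6.60%) had no second match. These were 65 windows at the start of the transcript in exon 1 and 55 windows in exons 11 and 12.

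The other 9 genes were close to free of this ambiguity. Psat1 had a second match, to the pseudogene Gm12611, in 68 of 2543 windows (2.67%). Shmt2 had one, to the pseudogene Gm15544, in 93 of 2206 windows (4.22%). The other 7 genes had none. A level of Phgdh in these tables is therefore uncertain in a way that the levels of the other 9 are not. The study gives the share of reads with a single location, and states that processed pseudogenes kept it from evaluating Hspa8. How reads with several matches entered the deposited RPKM is not stated in the sources used here.

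**Figure D1:**
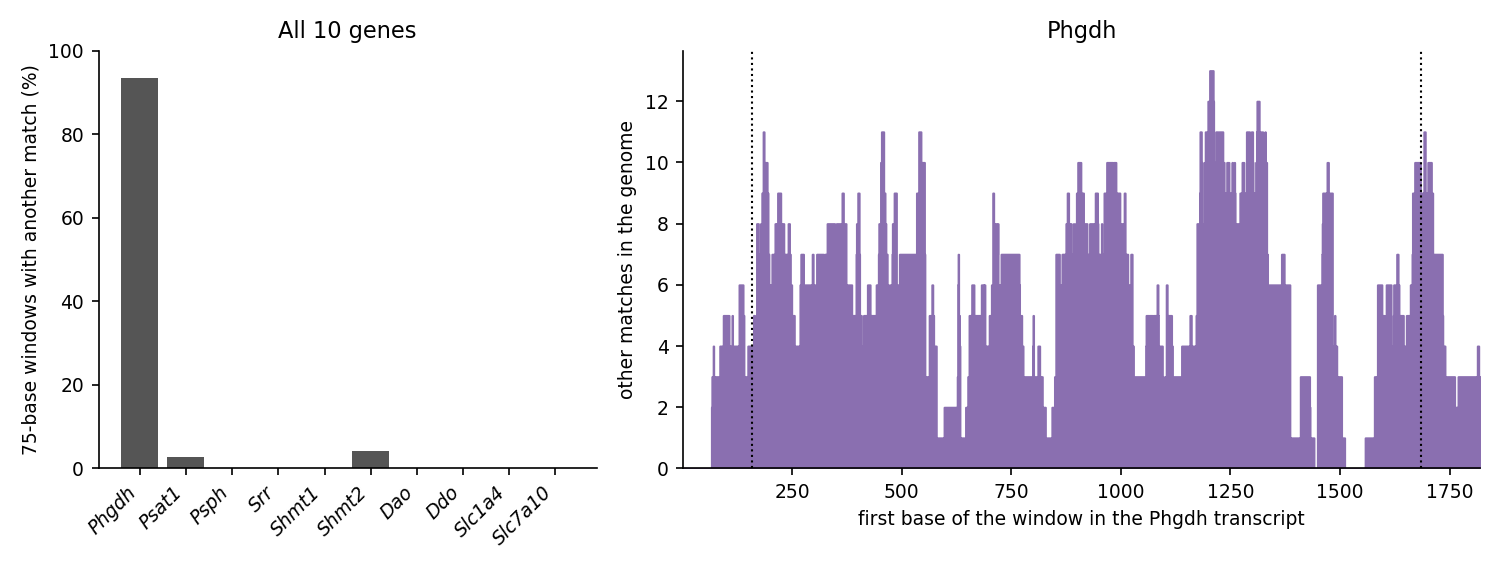
Left, the share of 75-base windows along each gene's transcript that match another place in the genome with at most 2 mismatches (%). Right, the number of other matches for each window of Phgdh by the position of its first base (bases), with dotted lines at the first and last windows inside the coding sequence; Phgdh stands at 93.4% and the other genes at 4.22% or less.

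The files hold RPKM, reads scaled to transcript length and to the number of mapped reads. This allows levels to be compared between libraries and, except for Phgdh with its second matches, between genes. Mean RPKM over the 4 libraries ran from 41.5 for Psat1 to 0.381 for Phgdh. The order was Psat1, Slc1a4 (20.5), Srr (12.6), Psph (11.4), Slc7a10 (8.86), Shmt2 (8.02), Ddo (1.70), Shmt1 (0.704), Dao (0.505) and Phgdh. Neighbours in this order had overlapping ranges over the 4 libraries in 4 instances, namely Srr with Psph, Slc7a10 with Shmt2, Shmt1 with Dao, and Dao with Phgdh, so the order within each of these pairs is not set by these data. The place of Phgdh is also not set, because of its second matches. If every read had come from windows with no second match, its RPKM over them would be 3.88 to 8.00. That would lie above Ddo, Shmt1 and Dao. The median gene tested had an RPKM of 10.1, and 4 of the 10 genes, Psat1, Slc1a4, Srr and Psph, lay above it.

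**Figure D2:**
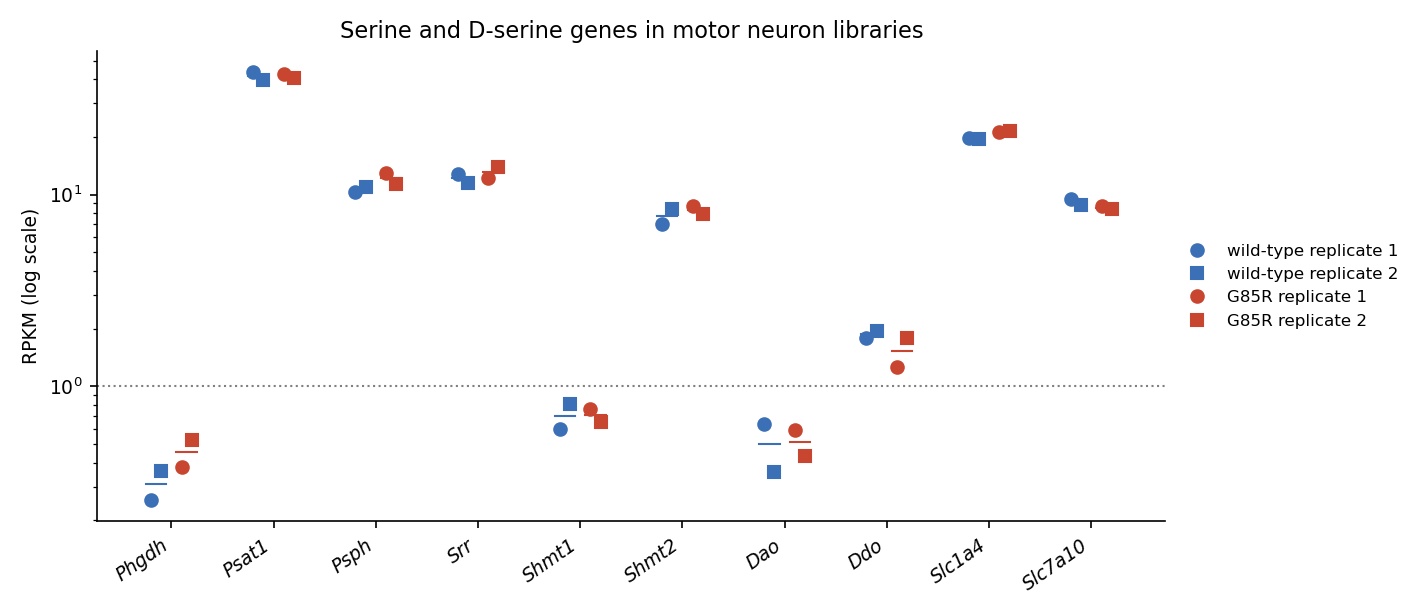
RPKM of each gene (log scale) in the 2 wild-type (blue) and 2 G85R (red) libraries, with circles for replicate 1, squares for replicate 2 and short lines at the mean of each genotype. The dotted line is an RPKM of 1, the minimum mean for the test; Psat1 lies highest at 39.6 to 43.5, and Phgdh, Shmt1 and Dao lie below the line in all 4 libraries.

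Of the 3 synthesis enzymes, Phgdh (3-phosphoglycerate dehydrogenase, Entrez gene 236539, chr3:98117093-98143913, minus strand) had RPKM values of 0.256 and 0.361 in wild-type against 0.380 and 0.528 in G85R. These values rest on 14, 21, 19 and 28 reads, whose exact Poisson 95% intervals of 7.65 to 23.5, 13.0 to 32.1, 11.4 to 29.7 and 18.6 to 40.5 reads all overlap. Such intervals cover counting error only. If every read had come from the windows with no second match, the corresponding RPKM over those windows would be 3.88 and 5.48 in wild-type against 5.76 and 8.00 in G85R, still below the values of Psat1 and Psph in the same libraries.

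Psat1 (phosphoserine aminotransferase, Entrez gene 107272, chr19:15979168-16021827, minus strand) catalyzes the second step. Its RPKM was 43.5 and 39.6 in wild-type against 42.4 and 40.6 in G85R, the most even of the 10 genes with a highest-to-lowest ratio of 1.10. The G85R values lay between the wild-type values. Psph (phosphoserine phosphatase, Entrez gene 100678, chr5:130271434-130293129, minus strand) releases L-serine in the final step and had RPKM values of 10.3 and 11.0 in wild-type against 12.9 and 11.4 in G85R. Both G85R libraries were higher than both wild-type libraries. Psat1 exceeded Psph by 3.28 to 4.23 times within each library, and exceeded Phgdh by 77.0 to 170 times, the latter ratio carrying the uncertainty of Phgdh.

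Srr (serine racemase, Entrez gene 27364, chr11:74719861-74739450, minus strand) makes D-serine from L-serine. Its RPKM was 12.8 and 11.5 in wild-type against 12.2 and 13.9 in G85R, so the genotypes overlapped. The level of the synthesizing enzyme was thus near the middle of all tested genes, at the 55.4th percentile.

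The degrading enzymes were low. Dao (D-amino-acid oxidase, chr5:114453712-114475458, plus strand, with no Entrez identifier in the files) had RPKM values of 0.639 and 0.357 in wild-type against 0.591 and 0.432 in G85R. These came from 32, 19, 27 and 21 reads, with 95% intervals of 21.9 to 45.2, 11.4 to 29.7, 17.8 to 39.3 and 13.0 to 32.1 reads. The replicates of each genotype differed by more than the genotype means, which were 0.498 ± 0.199 and 0.512 ± 0.112 (SD, n = 2). Srr exceeded Dao by 20.0 and 32.1 times in wild-type and by 20.6 and 32.2 times in G85R.

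Ddo (D-aspartate oxidase, Entrez gene 70503, chr10:40349817-40401653, plus strand) degrades D-aspartate, and D-serine is not its main substrate. It had RPKM values of 1.80 and 1.93 in wild-type against 1.26 and 1.79 in G85R. Both G85R values were lower, but G85R replicate 2 lay within 0.01 RPKM of wild-type replicate 1. Ddo exceeded Dao in every library, by 2.14 to 5.42 times.

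The serine hydroxymethyltransferases interconvert serine and glycine while loading a one-carbon unit onto folate. Shmt1 (Entrez gene 20425, chr11:60601606-60625220, minus strand) is the cytosolic form and Shmt2 (Entrez gene 108037, chr10:126954195-126959491, minus strand) the mitochondrial form. Shmt1 had RPKM values of 0.596 and 0.811 in wild-type against 0.762 and 0.649 in G85R. Shmt2 had 7.06 and 8.37 in wild-type against 8.77 and 7.89 in G85R. The mitochondrial form was 10.3 to 12.2 times higher than the cytosolic form in each library, and neither gene separated the genotypes.

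The transporters Slc1a4 and Slc7a10 carry small neutral amino acids. Slc1a4 (ASCT1, a sodium-dependent exchanger of serine, alanine and cysteine, Entrez gene 55963, chr11:20202183-20232716, minus strand) had RPKM values of 19.7 and 19.5 in wild-type against 21.3 and 21.6 in G85R. Both G85R libraries were higher, and the replicates were close. Slc7a10 (Asc-1, a sodium-independent transporter of glycine and of L- and D-serine, Entrez gene 53896, chr7:35971404-35989917, plus strand) had 9.53 and 8.85 in wild-type against 8.67 and 8.40 in G85R, both lower in G85R. The ratio of Slc1a4 to Slc7a10 was 2.07 and 2.20 in wild-type against 2.46 and 2.57 in G85R. The ratios could not overlap, since Slc1a4 was higher and Slc7a10 lower in both G85R libraries, so they add nothing to the single genes. An exact permutation test of 2 against 2 libraries cannot give a two-sided p below 0.333.

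The comparison of genotypes asked whether these genes differ in G85R motor neurons before symptoms. No serine gene passed the test. The test covered the 11530 genes whose mean RPKM reached 1, among them 7 serine genes. Limma called 0 of the 7 at an adjusted p under 0.05, against 0.642% of the 11530 (0.269% higher and 0.373% lower in G85R), and 0 of the 7 had an unadjusted p under 0.05, against 11% of the genes tested. The log-linear likelihood ratio test, run without the minimum, also called 0 of the 10 genes, against 0.228% of all rows. In that test 0 reached an unadjusted p under 0.05, against 1.29%. It used RPKM rounded to whole numbers, so it could not decide for Phgdh, Shmt1 and Dao, whose values lay below 1. All rows include those at 0, so these shares do not describe genes at the levels of the tested serine genes. Values are of RNA from a dissected population, so fewer cells of a type and less RNA per cell cannot be told apart.

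Fold changes were small. They are given as log2 of RPKM + 0.1, G85R minus wild-type, and the median over the 7 genes was 0.10 against -0.02 over all genes tested. The median size regardless of direction was 0.11 for the 7 genes and 0.12 for all genes tested. The genotypes did not overlap for 4 of the 7 genes, against 41.2% of the genes tested. Psph and Slc1a4 were the 2 that were higher in G85R, against 17.3% of the genes tested. Ddo and Slc7a10 were the 2 that were lower, against 23.9%.

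Psph differed most among the synthesis genes that were tested, with wild-type and G85R means of 10.6 ± 0.493 and 12.2 ± 1.07 (SD, n = 2), a log2 fold change of 0.19 (SE 0.12, 95% interval -0.10 to 0.49) and an adjusted p of 0.656 from limma. Without 1 library it ran from 0.10 (G85R replicate 1 left out) to 0.28 (G85R replicate 2 left out). The other tested synthesis enzyme, Psat1, had means of 41.5 ± 2.75 and 41.5 ± 1.23 and a log2 fold change of 0.00 (SE 0.11, 95% interval -0.25 to 0.25, limma adjusted p = 0.998). The interval of Psat1 was therefore narrow around no difference, while that of Psph reached further in the direction of a higher G85R level.

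Srr had wild-type and G85R means of 12.1 ± 0.930 and 13.1 ± 1.24, and its log2 fold change was 0.10 (95% interval -0.20 to 0.41, limma adjusted p = 0.858). It was 0.0080 without G85R replicate 2 and 0.20 without G85R replicate 1. Shmt2, with means of 7.71 ± 0.930 and 8.33 ± 0.623, had a log2 fold change of 0.11 (95% interval -0.22 to 0.44, limma adjusted p = 0.863). For neither gene was the difference larger than the spread between replicates.

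Slc1a4 had the smallest replicate spread relative to its level, with wild-type and G85R means of 19.6 ± 0.143 and 21.4 ± 0.179. Its log2 fold change was 0.13 (SE 0.10, 95% interval -0.12 to 0.37, limma adjusted p = 0.742), since limma draws the spread of each gene toward that of other genes at the same level. Slc7a10 had means of 9.19 ± 0.482 and 8.53 ± 0.197 and a log2 fold change of -0.11 (SE 0.12, 95% interval -0.39 to 0.18, limma adjusted p = 0.841). Leaving out 1 library moved Slc7a10 to between -0.16 (wild-type replicate 2 left out) and -0.052 (wild-type replicate 1 left out), and Slc1a4 stayed between 0.12 and 0.14.

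Ddo had the widest interval of the 7 genes. Its means were 1.87 ± 0.0973 for wild-type and 1.53 ± 0.375 for G85R, with a log2 fold change of -0.29 (SE 0.23, 95% interval -0.84 to 0.25, limma adjusted p = 0.726). G85R replicate 1 carried this value. Leaving that library out gave -0.05, and leaving out G85R replicate 2 gave -0.53. Apart from Ddo, the intervals of the tested genes lay between -0.39 and 0.49. A doubling or a halving of any of the 7 mRNAs, Ddo included, lay outside its interval.

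Phgdh, Shmt1 and Dao fell below the minimum mean of 1 and were fitted with the minimum lowered to 0.1, where 0.623% of 15242 genes were called. Phgdh had a log2 fold change of 0.44 (SE 0.32, 95% interval -0.33 to 1.21, limma adjusted p = 0.709), with both G85R libraries higher. Shmt1 had 0.01 (95% interval -0.62 to 0.64) and Dao 0.06 (95% interval -0.74 to 0.87), with limma adjusted p-values of 0.993 and 0.975. All 3 intervals were wide, and differences inside them were not detectable with these libraries.

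**Figure D3:**
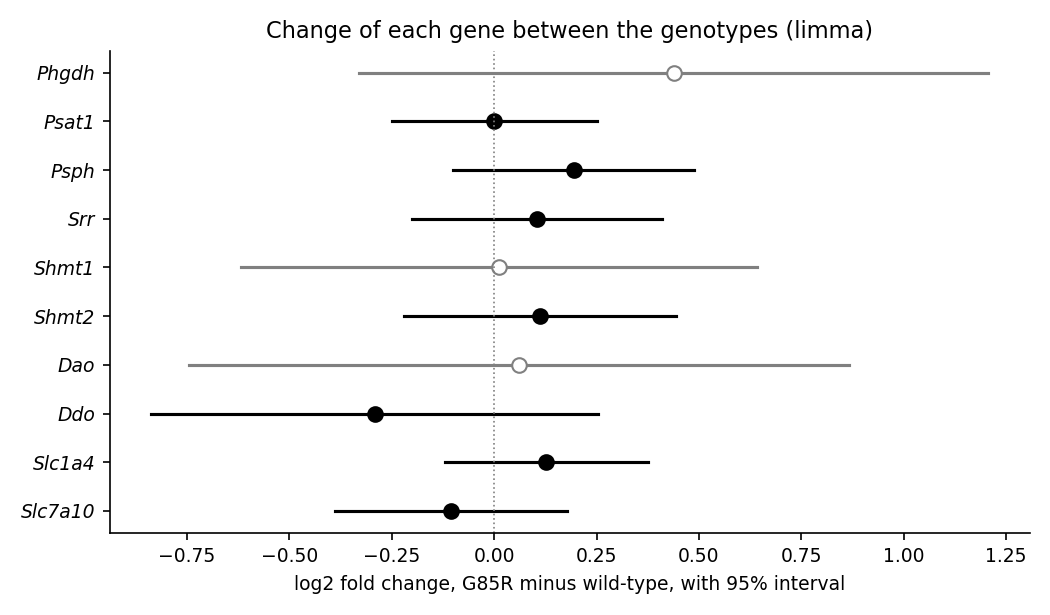
Log2 fold change of RPKM + 0.1, G85R minus wild-type, with its 95% interval from limma for each gene. Filled circles are the 7 genes whose mean RPKM reached 1 and open circles the 3 genes fitted with a minimum of 0.1; every interval includes 0, and the widest belong to Phgdh, Dao, Shmt1 and Ddo.

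The captured RNA carried motor neuron markers at high levels, and glial markers were also present. The summed RPKM of 10 motor neuron markers was 2582 and 2856 in wild-type against 2288 and 2666 in G85R. The G85R mean was the lower for 9 of these 10 genes, against 54.7% of all genes tested, and their median log2 fold change was -0.25. For 5 of the 10 both G85R libraries were below both wild-type libraries, against 23.9% of all genes tested. The summed RPKM of 14 astrocyte markers was 1138 and 1096 in wild-type against 1517 and 1177 in G85R, and 12 of the 14 were highest in G85R replicate 1. This sum rested mostly on Aldoc (443 to 671), S100b (412 to 498) and Glul (102 to 155). Slc1a3 and Aqp4, also in this list, lay at 0.990 to 2.81 and at 1.84 to 3.87. Gfap, an intermediate filament of reactive astrocytes, had 11.5 and 17.1 in wild-type against 91.9 and 28.4 in G85R.

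Microglia markers summed to 40.2 and 43.2 in wild-type against 75.8 and 46.3 in G85R, with 13 of 13 highest in G85R replicate 1. That library was also the highest for 8 of 12 oligodendrocyte, 5 of 6 inhibitory interneuron, 4 of 9 endothelial and 0 of 10 motor neuron markers. The share over all genes tested was not computed. The 6 markers of inhibitory interneurons summed to 149 and 159 in wild-type against 173 and 180 in G85R. The G85R mean was higher for all 6, against 45.3% of all genes tested, with a median log2 fold change of 0.17. Npy, among the 6, had 1.38 and 1.12 in wild-type against 2.95 and 19.7 in G85R. The higher sum in G85R replicate 2 therefore rested mostly on Npy. Limma called 0 of the motor neuron, astrocyte, microglia and interneuron markers. An unadjusted p under 0.05 was reached by 3 of 10 tested motor neuron, 2 of 14 astrocyte, 3 of 10 microglia and 1 of 6 interneuron markers, against 11% of all genes tested. None of these markers was at 0 in all libraries. Of the 10 serine genes, Psph and Shmt2 were the 2 that were highest in G85R replicate 1, the library in which Ddo was lowest. The part of RNA from other cell types in the levels or differences of the serine genes was not tested.

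The surrounding pathways were read from 8 lists of 112 genes, of which 109 were found and 82 were tested. Limma called 0 of the 82, with 10 (12.2%) at an unadjusted p under 0.05 against 11% of all genes tested, and the likelihood ratio test also called 0. The genotypes did not overlap for 30 of the 82 (36.6%), against 41.2%. The median log2 fold change was 0.01.

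In the folate one-carbon cycle, which accepts the carbon that the hydroxymethyltransferases remove from serine, 17 genes were tested and their median log2 fold change was -0.02. Mtr (methionine synthase) had RPKM values of 2.33 and 2.69 in wild-type against 1.70 and 1.74 in G85R, a log2 fold change of -0.52 with a limma adjusted p of 0.370. Mthfd2l, a mitochondrial folate enzyme, had 5.14 and 5.22 in wild-type against 7.24 and 6.15 in G85R (0.36, limma adjusted p = 0.417), and 17.9% of its coding windows matched another place in the genome. Neither pair of genotypes overlapped, while Atic, a purine synthesis enzyme and the most abundant of this list, was even at 31.3 to 32.8.

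In glycine cleavage and glycine metabolism 9 genes were tested, with a median of 0.23. Gcsh (the lipoyl carrier protein of the cleavage system) had RPKM values of 52.3 and 57.2 in wild-type against 23.0 and 40.4 in G85R. This was the lowest log2 fold change of the 82 tested genes, -0.84 (SE 0.24), and did not pass the test (limma adjusted p = 0.258). It passed when the replicate number was added as a block (adjusted p = 0.00519) and without G85R replicate 2 (adjusted p = 0.00234), and 44.9% of its coding windows matched another place in the genome.

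Also in this list, Gcat, which takes part in threonine breakdown to glycine, had 3.47 and 3.30 in wild-type against 4.38 and 4.31 in G85R (0.35, limma adjusted p = 0.431). Dld, the shared dihydrolipoamide dehydrogenase, was the most abundant at 96.1 to 123 and its genotypes overlapped. Among 5 tested genes of serine deamination and transsulfuration, Cbs, which joins serine to homocysteine, had 1.20 and 1.47 in wild-type against 2.24 and 1.78 in G85R (0.56, limma adjusted p = 0.424), and the median of the list was -0.03. Mat2b, a subunit of the enzyme that makes S-adenosylmethionine, was its most abundant member at 41.8 to 46.4, and its genotypes overlapped.

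In the list of other serine and glycine transporters the G85R mean was the higher for all 10 tested genes, against 45.3% of all genes tested, and the median was 0.16. Slc6a5, among these 10, is also an interneuron marker. The median log2 fold change was 0.17 for interneuron, 0.21 for astrocyte and 0.41 for microglia markers, against -0.25 for motor neuron markers. The part of these cell types in this list was not tested. Slc1a5, which was below the minimum and not tested, had 0.819 and 0.899 in wild-type against 0.475 and 0.243 in G85R, and both it and Slc6a5 were chosen with their values known. Without wild-type replicate 1 the count was 7 of 10 and the median 0.081. The genotypes did not overlap for 6 of the 10, against 17.3% of all genes tested in that direction, yet limma called 0 and 1 had an unadjusted p under 0.05. Sfxn3, a mitochondrial serine carrier family member, had RPKM values of 27.5 and 28.7 in wild-type against 32.4 and 36.0 in G85R (0.28, limma adjusted p = 0.417). Slc3a2, the heavy chain with which Slc7a10 pairs, had 41.3 and 49.5 in wild-type against 54.8 and 53.0 in G85R (0.25, limma adjusted p = 0.510). Slc38a2, a sodium-coupled neutral amino acid transporter, was the most abundant, with 51.7 and 60.1 in wild-type against 65.7 and 64.5 in G85R (0.22, limma adjusted p = 0.537).

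The NMDA receptor subunits, on which D-serine acts, had a lower G85R mean for all 5 tested members, against 54.7% of all genes tested, and a median of -0.22. The motor neuron markers, with a median of -0.25, moved the same way, and their part in this was not tested. Limma called 0 of the 5, and 0 had an unadjusted p under 0.05. Grin2a and Grin2b were below the minimum and not tested. Grin2a went the other way, with 0.296 and 0.400 in wild-type against 0.354 and 0.457 in G85R. Grin2b had 0.520 and 0.429 in wild-type against 0.504 and 0.329 in G85R. Grin1, the subunit that binds D-serine and glycine in every such receptor, had RPKM values of 126 and 144 in wild-type against 132 and 120 in G85R (-0.10, limma adjusted p = 0.834). Grin2d had 6.02 and 7.61 in wild-type against 5.85 and 5.77 in G85R (-0.22, limma adjusted p = 0.692), and was the 1 subunit whose genotypes did not overlap. The median of the 5 rested in part on single libraries, being -0.38 without wild-type replicate 1 and -0.057 without wild-type replicate 2.

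Serine use in lipid synthesis had 13 tested genes and a median of -0.06, with Serinc1 at 509 and 487 in wild-type against 561 and 576 in G85R (0.19, limma adjusted p = 0.495). Serinc1 belongs to a family named for the incorporation of serine into membrane lipids. Pisd, which converts phosphatidylserine to phosphatidylethanolamine, had a log2 fold change of -0.25 (limma adjusted p = 0.681), with 30.4% of its coding windows matching elsewhere. Among 5 tested partners of serine racemase and Dao (median 0.04), Pick1, a PDZ protein that binds Srr, had 24.1 and 24.1 in wild-type against 29.5 and 26.7 in G85R (0.21, limma adjusted p = 0.540), while Golga3, another binding partner, had -0.15 (limma adjusted p = 0.708). Dlg4 (PSD-95, a scaffold of NMDA receptors) was the most abundant of these at 90.5 to 99.2, with overlapping genotypes.

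Atf4 is a transcription factor of the amino acid response that drives Phgdh, Psat1, Psph and Shmt2 in other cells. The 18 tested genes of the Atf4 and amino acid response list had a median of 0.03. Atf3, an early stress factor, had RPKM values of 0.675 and 2.12 in wild-type against 3.05 and 2.85 in G85R, a log2 fold change of 1.22 with a limma adjusted p of 0.389, and it passed without wild-type replicate 2 (1.98, limma adjusted p = 0.0138). Eif2ak4, the kinase that senses uncharged tRNA, had 3.90 and 4.20 in wild-type against 2.97 and 2.95 in G85R (-0.44, limma adjusted p = 0.341). Nars, a tRNA synthetase and the most abundant of the list, had 320 and 316 in wild-type against 323 and 349 in G85R (0.08, limma adjusted p = 0.843). Atf4 itself was even, at 92.3 and 83.0 in wild-type against 91.8 and 86.0 in G85R.

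**Figure D4:**
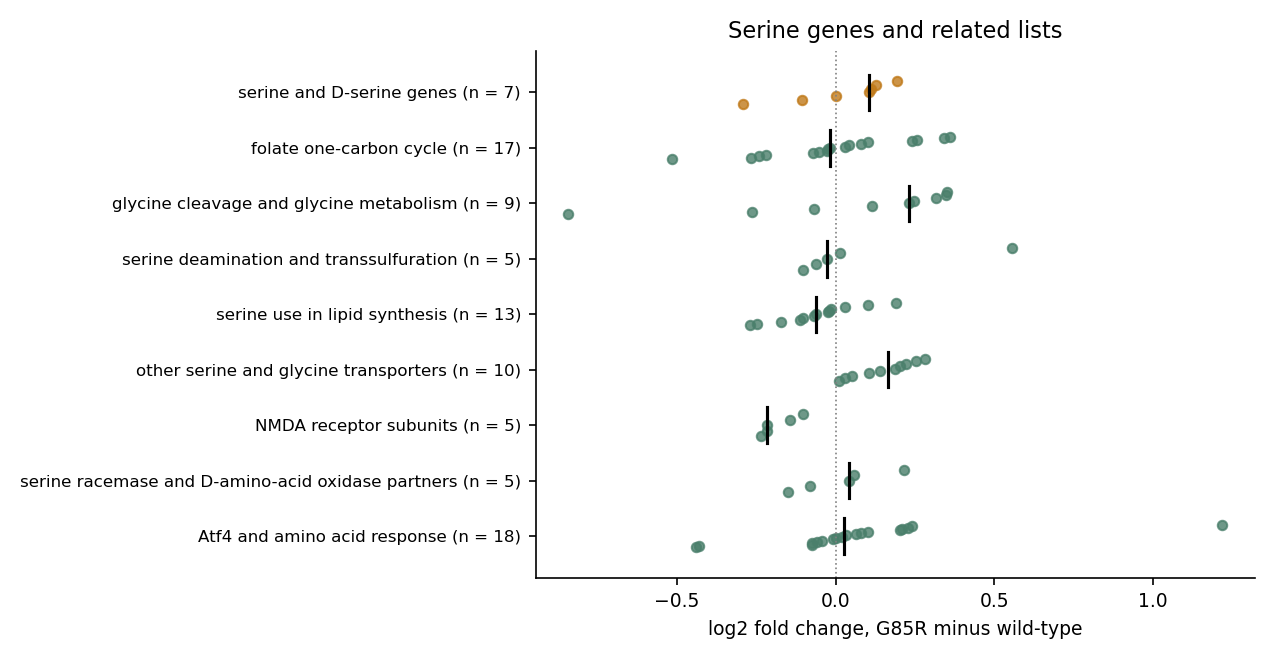
Log2 fold change of RPKM + 0.1, G85R minus wild-type, of each tested serine gene (orange) and of the tested genes of 8 related lists (green), with black bars at the medians. The medians run from -0.22 for the NMDA receptor subunits to 0.23 for glycine cleavage and glycine metabolism, and no gene shown passed the adjusted test.

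Depth was similar in the 4 libraries. The reads summed over genes, estimated from the pair of RPKM columns, were between 21560318 and 25186594, and 17116 to 17398 rows were above 0. At this depth 1 read was worth a median RPKM of 0.0195 to 0.0226, so the values of Psat1 or Slc1a4 rest on far more reads than those of Phgdh or Dao. For Slc1a4 they rest on 2195 to 2359 reads.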

How the data were processed

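RNA of laser-dissected motor neurons was sequenced by the authors as 75-base reads and mapped with Bowtie 0.12.3 to mm9 and a splice database, per the submitters' processing notes and the study's methods. Expression was quantified with Cufflinks. Each deposited file holds, for 1 animal, RPKM made by the authors and the same RPKM with 1 read added. No counts were used, and the difference of the 2 RPKM columns gave the worth of 1 read and so the depth. Reads came out whole within a tolerance of 0.01 read plus 0.005% for the 4 serine genes with 1 transcript per row.

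The 11530 genes whose mean RPKM reached 1 were tested on log2(RPKM + 0.1) with limma 3.58.1 in R 4.3.3 (lmFit, eBayes with trend), G85R minus wild-type, with Benjamini-Hochberg adjustment over all of them and calls at an adjusted p under 0.05. The offset makes fold changes of low genes smaller. The study's log-linear test was a count model and served as an alternative, as a Poisson model of the rounded RPKM with 1 read added. The fit was tested on simulated data. The study plotted genotype ratios by replicate number, but no source used here says that a number marks a shared day or litter, so the fit had no block, and with 1 animal per library p-values measure the spread between 2 animals.

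Windows of 75 bases of 1 transcript per gene (GENCODE vM1) were searched on both strands of NCBIM37, the assembly also named mm9, with up to 2 mismatches, using Python 3.11.15 with numba 0.67.0. The named genes are the 10 serine genes and, of each of the 8 lists, the gene with the highest mean RPKM and the 2 genes with the largest change among those whose genotypes did not overlap, plus any called. Outside this rule Atf4, Chac1, Slc1a5, Slc6a5, Grin2a, Grin2b and the markers Gfap, Npy, Aldoc, S100b, Glul, Slc1a3 and Aqp4 were picked with their values known. So were the genes named for second matches (Ahcy, Bhmt, Mthfs, Tdh, Disc1 and Mat2a). The genes, lists and markers were chosen with earlier results of these data known.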

Additional observations from a re-analysis of the deposited data

How the results depend on the processing

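Limma or the log-linear test called 0 serine genes under each of the 16 alternatives, of which 12 tested 7 of the 10 genes, 3 tested all 10 and 1 tested 6, and the lowest adjusted p over them was 0.447. For Phgdh, Shmt1 and Dao the log-linear test could not decide, because of the rounding given above. Of 117 fold changes of single serine genes under the alternatives, 113 kept their direction and 4 reversed it. Psat1, at 0.00, became -0.00071 in the log-linear test and ranged from -0.067 without wild-type replicate 2 to 0.068 without wild-type replicate 1, with -0.030 without G85R replicate 1. Shmt2, at 0.11, ranged from -0.0097 without wild-type replicate 1 to 0.23 without wild-type replicate 2. No serine gene had more than 1 row, so summing rows gave identical values.

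Among all tested genes limma called 74. It called 40 after quantile normalization, 17 with a minimum mean RPKM of 5, 112 with no filter on low values, 49 without the trend, 527 with the replicate number as a block, and 78 to 188 when 1 library was left out, the highest without G85R replicate 2. The share of calls higher in G85R was 41.9%, and ran from 34.0% without G85R replicate 2 to 62.9% in the log-linear test, with 61.5% without wild-type replicate 2. Of the related genes 0 were called, against 2 with the replicate block (Gcsh and Chac1, the second of which was chosen with its values known) and 0 to 1 when 1 library was left out (Atf3 without wild-type replicate 2, Gcsh without G85R replicate 2). The cause was not tested. The replicate differences of the genotypes correlated at 0.22 across genes over 2 pairs, and no source used here says that the numbers mark a shared day or litter. Without 1 library limma has 1 residual degree of freedom and takes the lone library to vary like the other genotype. With 2 animals per genotype small differences could not be called, and the levels of Phgdh and Dao rest on few reads.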

Other observations

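Second matches in the genome also touched genes around serine metabolism. Of the 109 related genes that were searched, 85 had no coding window of 75 bases with another match, and 12 had one in at least 30% of their coding windows. Every coding window of Ahcy, which hydrolyses S-adenosylhomocysteine to homocysteine, had another match, 1225 of 1225. The same held for Bhmt, which remethylates homocysteine, in 1150 of 1150 windows. Ahcy was listed at an RPKM of 0.40 to 0.99 over the 4 libraries and was not tested. Mthfs had another match in 88.6% of its coding windows, Tdh in 63.6%, Disc1 in 56.6% and Mat2a in 47.8%.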
